A study of Mus musculus with 4 samples.

Results

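Mature migratory dendritic cells were studied as the Ccr7-positive antigen-presenting cells of the aged mouse kidney, and 130 of 50605 filtered cell barcodes met the rule (76278 barcodes in all). They were chosen by measured values: the rule read raw UMI counts (unique molecular identifiers, each standing for 1 captured mRNA molecule) and asked for at least 1 Ptprc, at least 2 Ccr7, at least 2 in the sum of Fscn1, Ccl22, Il4i1 and Zbtb46, and at least 10 in the sum of H2-Aa and H2-Ab1. It also asked for no Cd3d, Cd3e, Cd3g or Cd79a, which mark T and B cells, and for at most 9 UMIs of the 3 C1q genes, which mark macrophages. The animals were male C57BL/6 mice, 19 months old, that received BPTES, a glutaminase inhibitor, or its vehicle DMSO for 1 month. Each group had 2 libraries, and each library combined 20000 sorted CD45-negative and 9000 sorted CD45-positive cells of digested kidney. The labels give no dose and do not say whether the libraries of a group came from separate animals. The comparison asks how glutaminase inhibition bears on these cells. With 2 libraries per group, the p-values measure only the spread between these 4 libraries, which may be technical.

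Dendritic cells take up antigen in tissues and present it to T cells on MHC molecules. On maturation they raise the chemokine receptor Ccr7, which guides them through lymphatic vessels to the draining lymph node, together with co-stimulatory molecules, chemokines for T cells and a set of inhibitory ligands. The program is driven largely through NF-kB, with Relb as its best known subunit, and it can be entered by both conventional subsets, cDC1 (Xcr1, Clec9a) and cDC2 (Cd209a, Clec10a, Mgl2).

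The BPTES libraries contributed 21 and 13 such cells, from 5489 and 5052 Ptprc-positive barcodes. The DMSO libraries contributed 50 and 46, from 5816 and 5210. As a share of Ptprc-positive barcodes, that was 0.383% (exact 95% binomial interval 0.237 to 0.584) and 0.257% (0.137 to 0.440) with BPTES, against 0.860% (0.639 to 1.13) and 0.883% (0.647 to 1.18) with DMSO. The intervals cover counting error only. The 2 groups of libraries did not overlap, and the ratio of the means was -1.45 on the log2 scale (0.320% ± 0.0886 against 0.871% ± 0.0164, SD, n = 2 each). The exact two-sided permutation test gave p = 0.333, the smallest that 2 against 2 libraries allow. Among all gated dendritic cells (Ccr7, cDC1 and cDC2 gates together) the share was 9.77% and 7.07% with BPTES and 13.8% and 18.2% with DMSO, again without overlap (exact permutation p = 0.333). The cDC1-gated cells, at 1.88% and 1.84% of Ptprc-positive barcodes with BPTES and 2.05% and 2.00% with DMSO, lay closer together. The cDC2-gated cells stood at 1.66% and 1.54% against 3.34% and 1.98%. Since the rule itself reads Ccr7, Ccl22, Fscn1 and Il4i1, a lower level of these genes and a lower number of cells cannot be told apart in the share. With the sum of Fscn1, Ccl22, Il4i1 and Zbtb46 (the second condition) left out of the rule, the gap was narrower, at 29 and 17 BPTES cells against 55 and 51 DMSO cells (log2 ratio -1.15 of Ptprc-positive barcodes and -0.65 of gated dendritic cells, against -0.92 of gated dendritic cells by the rule). Both of the next settings were chosen after seeing the data, and both widened the gap. With Ccr7 at 10 UMIs or more, 7 and 5 BPTES cells stood against 28 and 37 DMSO cells. With Zbtb46 left out of the sum, 10 and 11 stood against 46 and 42. After thinning to 5000 UMIs, for which 1846 to 2242 shallower barcodes per library were left out, 5 and 3 cells met the rule among 4039 and 3824 Ptprc-positive barcodes with BPTES. With DMSO 25 and 29 met it among 4450 and 3819.

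**Figure D1:**
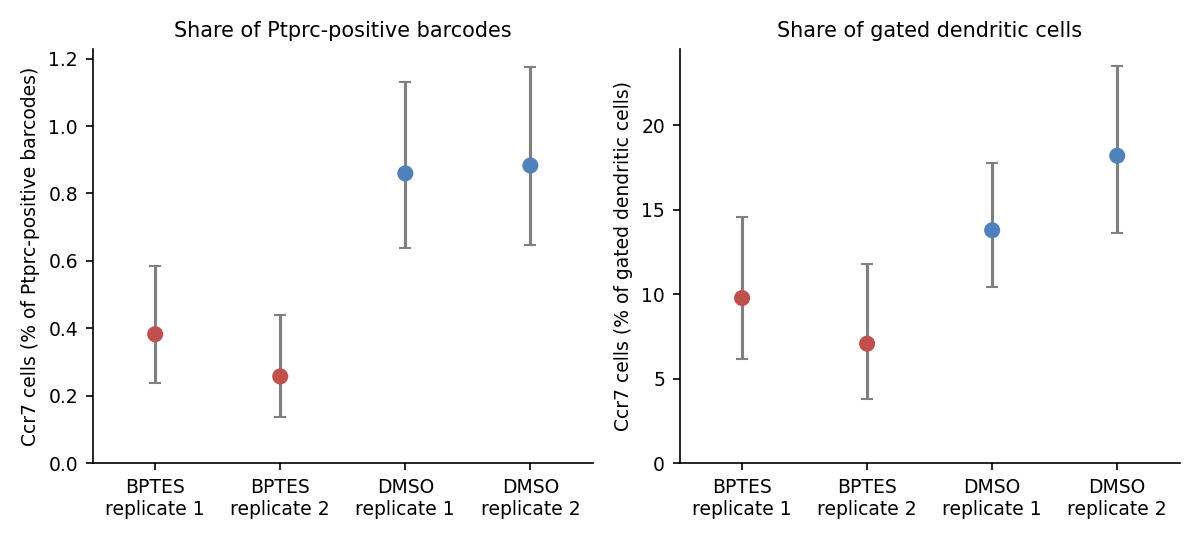
Share of Ccr7 cells in each library, as a percentage of Ptprc-positive barcodes (left) and of gated dendritic cells (right); points are libraries and bars are exact 95% binomial intervals. Both BPTES libraries sit below both DMSO libraries in each panel, at 0.383% and 0.257% against 0.860% and 0.883% on the left.

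The genes of the rule are described here without a test, because they chose the cells. Levels are CPM, the UMIs of a gene per 1000000 UMIs summed over the cells of a library. Ccr7 (chr11:99144196-99155077 on mm10, minus strand), the lymph node homing receptor, was at 371 and 646 CPM with BPTES and at 837 and 1012 CPM with DMSO. In Ptprc-positive barcodes with at least 10 C1q UMIs Ccr7 was at 16.7 to 25.6 CPM. Fscn1 (chr5:142960343-142973185, plus strand), which bundles actin in dendrites, was at 208 and 246 CPM with BPTES and at 1026 and 565 with DMSO. Ccl22 (chr8:94745590-94751699, plus strand), a ligand of Ccr4 that draws regulatory T cells, was at 97.8 and 149 CPM against 810 and 1097. Il4i1 (chr7:44816387-44840809, plus strand), a secreted amino acid oxidase, was at 143 and 287 CPM against 544 and 546. All 4 were lower in both BPTES libraries than in both DMSO libraries. Zbtb46 (chr2:181387762-181459426, minus strand), a transcription factor of conventional dendritic cells, differed less, at 133 and 118 CPM against 177 and 149. The MHC class II chain H2-Aa was at 9996 to 12052 CPM in the 4 libraries, close to its level in cDC2-gated cells. The other class II chain of the rule, H2-Ab1, had medians of 362 and 405 UMIs per cell with BPTES and 226 and 360.5 with DMSO. In cDC2-gated cells these medians were 319 and 289 with BPTES and 359 and 405 with DMSO.

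The label was borne out only in part. Fscn1 was at 0 in 68 of the 130 cells (15 of 21, 7 of 13, 22 of 50 and 24 of 46 by library, BPTES first), Ccl22 in 42 and Il4i1 in 27. All 3 were detected together in 47 cells (3, 4, 25 and 15), and all 3 were at 0 in 14 cells (10, 1, 1 and 2). In 21 cells (11, 2, 4 and 4) their sum was under 2 UMIs, so that Zbtb46, which immature dendritic cells also carry, completed the rule. Ccr7 reached 10 UMIs in 33.3% and 38.5% of the BPTES cells and in 56.0% and 80.4% of the DMSO cells. The set therefore mixes cells with the full mature program and cells with Ccr7 but little else of it, and 11 of the 21 cells that Zbtb46 completed came from the first BPTES library. Of the other mature markers, Lamp3 was at 0 in every library. The 15 mature markers outside the rule together made up a median of 35.01 and 43.5 UMIs per 10000 in BPTES cells and of 65.0 and 64.5 in DMSO cells. That median was 108 over the Fscn1-positive cells and 34.6 over the Fscn1-negative ones, at similar depths (31530 and 36099.5 UMIs per cell).

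**Figure D2:**
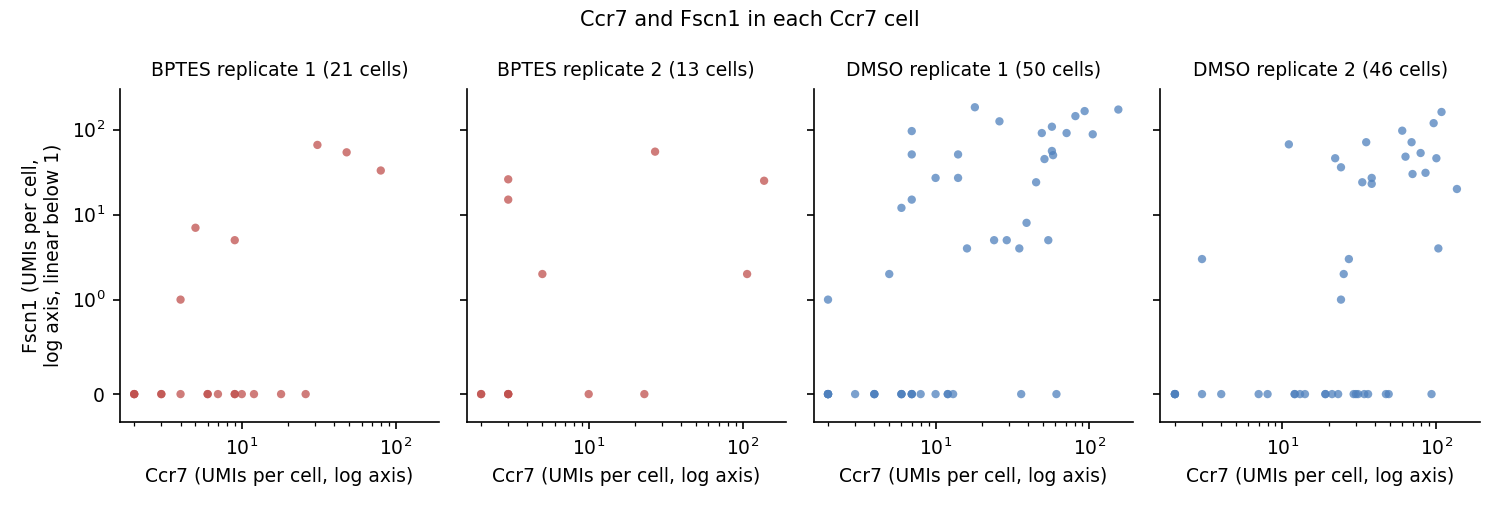
Ccr7 (x axis, log scale) against Fscn1 (y axis, log scale, linear below 1) in UMIs for each Ccr7 cell, one panel per library. Cells on the bottom line have no Fscn1 UMI, 15 of 21 and 7 of 13 with BPTES and 22 of 50 and 24 of 46 with DMSO.

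Barcodes at the edges of the rule were counted. Exactly 2 Ccr7 UMIs were found in 3, 2, 6 and 4 members, while 1, 5, 14 and 9 barcodes with 1 Ccr7 UMI met every other condition. The sum of the other 4 genes was exactly 2 in 4, 0, 2 and 0 members and was 1 in 3, 0, 1 and 1 barcodes that were otherwise members. Barcodes that met the conditions on Ptprc, Ccr7, the 4-gene sum and class II but held a Cd3 UMI numbered 36, 29, 32 and 37. Those that met these conditions but held a Cd79a UMI numbered 50, 43, 51 and 42. Neither count applied the other exclusions of the rule, so a barcode could fall in both. In both BPTES libraries each of these counts exceeded the number of members. T and B cells also carry Ccr7, and whether these barcodes were such cells or doublets was not tested. By subset markers, 18 of the 130 cells held at least 2 UMIs of cDC1 markers and 68 held at least 2 of cDC2 markers. Both counts include 8 cells that held at least 2 of each, and 52 cells reached 2 of neither. The origin of the cells was not tested.

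The libraries held 249881074 to 297947661 UMIs over 17907 to 20091 barcodes. The Ccr7 cells had medians of 36373 and 38073 UMIs with BPTES and 31949 and 34396 with DMSO. The rule reads raw UMIs, so which cells met it depends on depth. In cDC2-gated cells the medians were 28711 and 29878 with BPTES and 31662.5 and 33627 with DMSO. In cDC1-gated cells they were 33971 and 32064 against 33222 and 40028.5. Over all barcodes they were 9435 and 8867 against 9110 and 10241.5. The part of depth in the share was not tested. Pairs of libraries shared 90 to 114 barcode sequences, none of them among the Ccr7 cells. Predicted doublets were 4 and 2 of the BPTES cells and 2 and 7 of the DMSO cells. Markers of other cell types were present at unequal levels. Summed over 7 proximal tubule markers, all 7 detected, the level was 2777 and 3743 CPM with BPTES and 1496 and 847 with DMSO. Over 6 plasma cell markers, all 6 detected, it was 292 and 397 against 65.1 and 52.9 CPM, of which most was Igkc and Igha, whose values are given with the test of BPTES against DMSO. Over 5 neutrophil markers it was 15.0 and 1122 against 438 and 9.20 CPM. The macrophage sum (10 markers, 3 of them limited by the rule) was 169 to 196 CPM against 136 to 222. The T cell sum (8 markers, 3 of them excluded by the rule) was 5.02 and 5.90 CPM against 51.4 and 21.8.

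Set against the 419 cDC1-gated and 466 cDC2-gated cells, which by their gates have no Ccr7 UMI, the Ccr7 cells carried a broad mature program. The genes of the gates were left out of these tests. With library as a block, edgeR's quasi-likelihood test called 2521 of 11082 genes (22.7%) against cDC1-gated cells, 1426 of them higher in Ccr7 cells (12.9%) and 1095 lower (9.88%). Against cDC2-gated cells it called 1533 of 10875 (14.1%), 895 higher (8.23%) and 638 lower (5.87%). Higher in both tests were 662 of 10665 genes (6.21%), and 295 were lower in both (2.77%). Because Ccr7, Fscn1, Ccl22 and Il4i1 mark the program by which the cells were chosen, the genes that travel with them were bound to differ, and the values below describe the program rather than test it. The count against cDC2-gated cells fell to 740 without the first DMSO library and to 834 without the second.

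Among the genes highest over both populations were Nudt17, Slco5a1, Cacnb3, Apol7c and Socs2. Nudt17, a nudix hydrolase, had 480 UMIs in the Ccr7 cells and 3 in each of the other populations. That is 525-fold the cDC1 level (95% counting interval 179 to 2556) and 538-fold the cDC2 level (183 to 2620). Slco5a1, an organic anion transporter family member, had 456 UMIs against 1 in cDC1-gated cells, a ratio of 1497 (267 to 59264), and 8 in cDC2-gated cells, a ratio of 192 (96.5 to 447). The calcium channel subunit Cacnb3 was at 89.0 and 72.7 CPM in BPTES and 250 and 199 CPM in DMSO Ccr7 cells. Its level in the other populations never passed 1.59 CPM in any library. Apol7c, an apolipoprotein L family member, was at 206, 47.2, 329 and 159 CPM, with 76 UMIs in all cDC1-gated cells, a ratio of 43.0 (34.1 to 55.1), and 2 UMIs in all cDC2-gated cells, a ratio of 1676 (463 to 13857). Its call against cDC1-gated cells was lost without the second DMSO library (edgeR adjusted p = 0.0578) and with no filter on low counts (0.0713). Socs2, which restrains cytokine signalling, was 76.8-fold the cDC1 level (56.0 to 108) and 68.5-fold the cDC2 level (50.9 to 94.2). H2-M2, a non-classical MHC class I gene, was 376-fold the cDC1 level (128 to 1835), with 3 UMIs there, and 33.1-fold the cDC2 level (23.3 to 48.3), with 35 UMIs. The remaining members of the leading 8 by the naming rule were Dpp10 and Slc4a8, each at 30.6-fold or more. The lowest counting bound among these ratios was 21.9, for Dpp10 against cDC2-gated cells. The counting intervals pool the UMIs of all cells and libraries and leave out the spread between cells and between libraries.

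Fabp5 (chr3:10012548-10016607 on mm10, plus strand), a cytosolic fatty acid binding protein, had the smallest p against cDC1-gated cells. It was at 410 and 354 CPM in BPTES and 1303 and 1322 CPM in DMSO Ccr7 cells. In cDC1-gated cells it was at 4.63 to 23.6 CPM and in cDC2-gated cells at 17.9 to 78.7 CPM. The log2 fold change was 6.35 (SE 0.173, edgeR adjusted p = 1.84e-06) against cDC1-gated and 4.56 (SE 0.162, edgeR adjusted p = 8.77e-06) against cDC2-gated cells. The lowest Ccr7 cell library was above the highest library of either other population.

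Only genes whose mean log2 CPM reached 5 could be named here, as for the leading 8 above. Of those lower in both tests, the 5 with the largest falls were Hist1h1b, Mki67, Top2a, H2afx and Plac8. The linker histone Hist1h1b was at 7.86 to 20.7 CPM in Ccr7 cells, at 77.3 to 176 in cDC1-gated and at 96.1 to 256 in cDC2-gated cells. The proliferation antigen Mki67 was at 8.05 to 35.4 CPM, against 81.3 to 221 and 120 to 258 (not called against cDC1-gated cells with no filter on low counts, edgeR adjusted p = 0.0551). Top2a, the topoisomerase of S and G2 phase, and the histone H2afx followed, at 0.103-fold and 0.158-fold the cDC1 level. Plac8, a gene of immature myeloid cells, was at 0.149-fold the cDC1 level and 0.248-fold the cDC2 level. Ccr2, the receptor for tissue entry of monocyte-derived and some dendritic cells, stood in the opposite direction to Ccr7. It was at 139 to 182 CPM in Ccr7 cells and at 482 to 681 in the other populations (log2 fold change -1.74, SE 0.133, and -1.61, SE 0.101, edgeR adjusted p = 7.67e-05 and 6.42e-05).

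Of the 16 genes listed as NF-kB subunits and feedback, 16 of 16 were higher against cDC1-gated cells (median log2 fold change 1.94, all genes -0.03) and 13 of 16 against cDC2-gated cells (median 0.82, all genes -0.02). Of all genes tested, 12.9% and 8.23% were higher. Relb was at 404 and 521 CPM with BPTES and 767 and 674 with DMSO, and at 35.03 to 122 CPM in the other populations (log2 fold change 3.92, SE 0.161, and 2.60, SE 0.137, edgeR adjusted p = 6.80e-06 and 3.66e-05). Nfkb2, the partner of Relb, was 4.40-fold the cDC1 and 2.66-fold the cDC2 level. Nfkbia, the inhibitor that NF-kB itself induces, was 6.36-fold and 1.98-fold. The genes named in this paragraph and in the accounts of maturation, regulation, migration and presentation were chosen after their values were seen.

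Of 11 maturation genes tested, 10 were higher against cDC1-gated and 9 against cDC2-gated cells (medians 2.10 and 1.58), beside 12.9% and 8.23% of all genes tested. Cd40, the receptor for T cell help, was 9.36-fold the cDC1 and 4.97-fold the cDC2 level. The co-stimulatory ligand Cd80 was 7.30-fold and 1.58-fold, and the maturation marker Cd83 was 3.75-fold and 1.58-fold. Il12b, the p40 subunit of interleukin 12, was at 28.8 and 165 CPM with BPTES and 712 and 183 with DMSO. No Il12b UMI was found in cDC2-gated cells, so its ratio has no measured value. With the cDC2 level set at a floor of 3 UMIs over the group it was 1764-fold, and the lower 95% counting bound was 1433. Against cDC1-gated cells Il12b did not pass edgeR's test (log2 fold change 4.96, SE 1.27, edgeR adjusted p = 0.0662). It was called there by DESeq2 (adjusted p = 7.71e-05) and by edgeR without the first DMSO library (3.69, adjusted p = 0.000809). Of the regulatory genes, 12 of 15 were higher against cDC1-gated and 8 of 16 against cDC2-gated cells, where 1 was lower (12.9% and 8.23% of all genes higher, and 5.87% lower against cDC2-gated cells). Cd274, which encodes the T cell inhibitory ligand PD-L1, was 16.9-fold and 6.52-fold. Its relative Pdcd1lg2 (PD-L2) was 14.8-fold and 9.79-fold, Cd200 was 4.96-fold and 10.5-fold, and Aldh1a2, which makes retinoic acid, was 16.6-fold and 12.01-fold. The call of Aldh1a2 against cDC1-gated cells was lost without the first or the second DMSO library (edgeR adjusted p = 0.178 and 0.160) and with no filter on low counts (0.156). The calls of Cd200 were lost without the first DMSO library (edgeR adjusted p = 0.0545 against cDC1-gated and 0.0512 against cDC2-gated cells).

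Of 21 migration and cytoskeleton genes, 16 were higher and 1 lower against cDC1-gated cells, and 14 higher and 3 lower against cDC2-gated cells, beside the same shares of all genes. Marcksl1, an actin-regulating protein, was 14.7-fold and 7.42-fold, and the tetraspanin Cd63 was 11.5-fold and 6.27-fold. Ccl5, a chemokine for effector T cells, was 60.1-fold and 24.0-fold. Against cDC2-gated cells the call of Ccl5 was lost without the first or the second DMSO library (edgeR adjusted p = 0.0856 and 0.0836) and with no filter on low counts (0.0791), and that of Cd63 with predicted doublets removed (0.0689). Tnfrsf4 (OX40), better known from T cells, was at 21.3, 35.4, 68.8 and 58.6 CPM and was at 0.344 to 1.92 CPM in every library of the other populations. Of the genes of MHC class I presentation, 11 of 12 were higher against cDC2-gated cells (median 0.81) and 6 of 12 against cDC1-gated cells (median 0.31). Nlrc5, the transactivator of the class I genes, was 4.05-fold the cDC2 and 1.98-fold the cDC1 level. Of 11 genes listed under class II presentation, 1 was higher and 2 were lower against cDC2-gated cells (median -0.05), where 8.23% of all genes tested were higher. That 1 gene was H2-M2, a non-classical class I gene that the list holds. Against cDC1-gated cells 6 were higher, H2-M2 among them, and 2 lower (median 0.67), beside 12.9% higher among all genes tested. Immediate early and heat shock genes, which respond to tissue digestion, were lower for 9 of 16 and higher for 1 against cDC2-gated cells (median -0.66), where 5.87% of all genes were lower. Against cDC1-gated cells 6 of the 16 were higher and 0 lower (edgeR, median 0.49; 11 at an unadjusted p under 0.05, 8 of them higher). Of the subset factors, Irf8, a cDC1 factor, was at 0.161-fold the cDC1 level and 3.56-fold the cDC2 level, and Irf4, a cDC2 factor, at 4.82-fold and 0.956-fold. The call of Irf8 against cDC2-gated cells was lost without either DMSO library or the second BPTES library, with predicted doublets removed and with no filter on low counts (edgeR adjusted p = 0.0743 to 0.207).

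**Figure D3:**
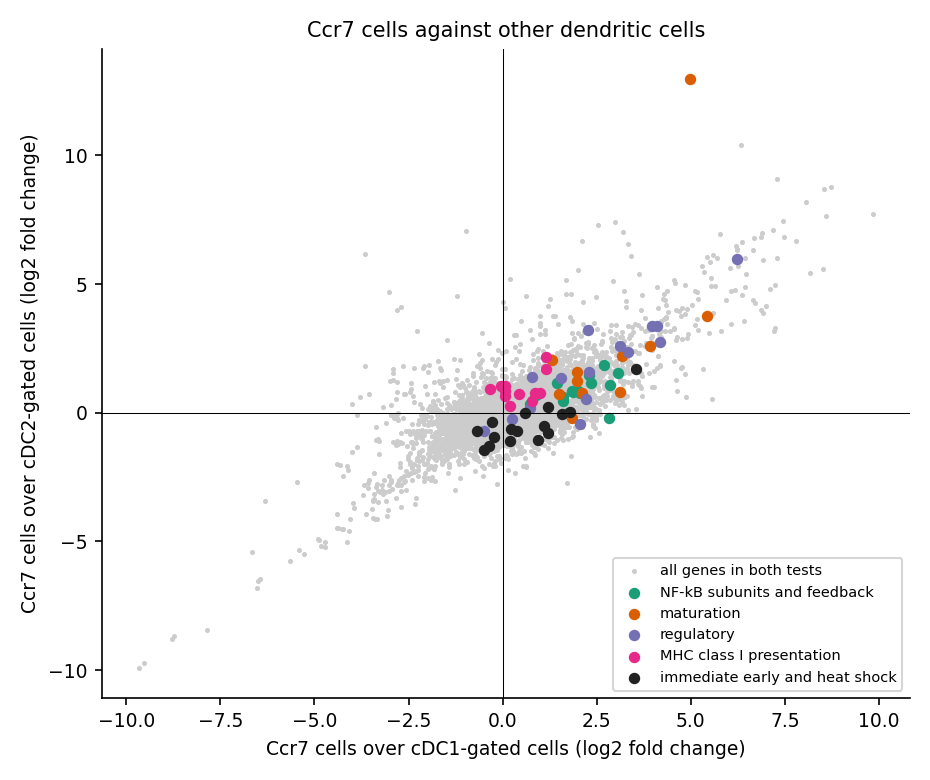
Log2 fold change of Ccr7 cells over cDC1-gated cells (x axis) and over cDC2-gated cells (y axis), each point a gene tested in both; coloured points are genes of 5 lists. The 16 NF-kB genes lie right of zero, and 9 of 16 immediate early and heat shock genes are lower in the second test. The fitted value of the topmost point, Il12b, has no UMI in cDC2-gated cells behind it and is no measure of size.

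Within the Ccr7 cells, BPTES and DMSO libraries were compared over 8649 genes, with the genes of the rule left out. Fabp5 was lower with BPTES, and Igkc, Igha and Spp2 were higher. These were the only genes called at an adjusted p under 0.05 by edgeR (4 of 8649, 0.0462%; 3 higher, 0.0347%; 1 lower, 0.0116%), while 967 genes had an unadjusted p under 0.05. DESeq2 called 73. Leaving out a library moved the count, to 36 and 66 without the first and second BPTES library and to 23 and 83 without the first and second DMSO library. Each of these fits left 1 library in a group, so a call in them does not show that a gene holds up. In them the log2 fold change lay between -1.932 and -1.745 for Fabp5 and between 2.026 and 2.392 for Igkc. It lay between 3.238 and 4.024 for Igha and between 2.547 and 2.735 for Spp2. In simulated data of the same size the test recovered 74% of 100 genes changed by 1.5 on the log2 scale and 100% of 100 changed by 3. The changed genes were drawn from well-covered genes, and every gene was given the same dispersion. The shares therefore do not tell how many changed genes the test missed in the real data.

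Fabp5 was at 410 and 354 CPM in the BPTES libraries and at 1303 and 1322 CPM in the DMSO libraries. The groups were far apart next to the spread within them (log2 fold change -1.83, SE 0.129, edgeR adjusted p = 0.0125). The Fscn1-positive cells had 1376 and 687 CPM with BPTES and 2055 and 2792 with DMSO, and the Fscn1-negative cells had 54.9 and 69.2 against 288 and 254. Fabp5 was thus lower on both sides of this split, which was made on a gene of the rule. Fscn1 was at 0 in 15 of 21 and 7 of 13 BPTES cells, so few cells stand behind the Fscn1-positive BPTES values. The Fscn1-positive cells, in which Fabp5 was higher, made up a smaller part of the BPTES cells in the first library. The part of this makeup in the difference was not tested. Among cells with 10 or more Ccr7 UMIs the difference was -1.13 and was not called (edgeR adjusted p = 0.809), nor was it with Zbtb46 left out of the rule (-1.28, edgeR adjusted p = 0.487) or with Ccr7 at 1 UMI or more (-1.55, edgeR adjusted p = 0.209). In cDC2-gated cells Fabp5 was at 17.9 and 18.1 CPM with BPTES and 44.7 and 78.7 with DMSO (log2 fold change -1.82 with SE 0.324, edgeR adjusted p = 0.116). It was called there by DESeq2 (adjusted p = 0.000131) and by edgeR with the replicate block (adjusted p = 0.0228) and with no filter on low counts. The difference between the Ccr7 and cDC2 responses was -0.10 (SE 0.334, edgeR adjusted p = 0.974).

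The immunoglobulin light chain Igkc was at 196 and 248 CPM with BPTES and at 50.8 and 40.8 with DMSO (log2 fold change 2.22 with SE 0.230, edgeR adjusted p = 0.0461). The heavy chain Igha was at 77.7 and 132 CPM against 9.30 and 6.32 (log2 fold change 3.66, SE 0.379, edgeR adjusted p = 0.0461). Both are products of plasma cells. The level of Igkc was alike in the other dendritic cells of each library. Igkc was at 202 and 268 CPM with BPTES and 58.5 and 52.8 with DMSO in cDC1-gated cells, and at 206 and 268 against 44.3 and 41.2 in cDC2-gated cells. Igkc was also called in cDC2-gated cells (log2 fold change 2.41, SE 0.154, edgeR adjusted p = 0.00520), but not without the first or the second DMSO library (edgeR adjusted p = 0.0709 and 0.0847). The 3 dendritic populations of a library thus held like levels of Igkc. Igha had a log2 fold change of 3.87 (SE 0.383) in cDC2-gated cells, not called by edgeR (adjusted p = 0.0621) but called by DESeq2 (adjusted p = 6.6e-26). Of the 4 other plasma cell markers, Jchain was at 17.6 and 15.7 CPM with BPTES and at 3.10 and 1.72 with DMSO in Ccr7 cells. Mzb1 and Sdc1 were at 0 in both BPTES libraries and the first DMSO library, and Derl3 was at 1.25 to 1.97 CPM in all 4. Their part in the result was not tested. Spp2, a secreted phosphoprotein, was at 79.0 and 88.4 CPM with BPTES and 13.02 and 12.6 with DMSO (log2 fold change 2.64 with SE 0.262, edgeR adjusted p = 0.0461). In the BPTES libraries all of it lay in Fscn1-negative cells, at 108 and 164 CPM, and none in Fscn1-positive cells. The proximal tubule gene Gpx3 was at 2277 and 4964 CPM in those Fscn1-negative BPTES cells and at 143 and 121 in the Fscn1-negative DMSO cells, and its part in the result was not tested. The calls of Igkc, Igha and Spp2 were lost in most other gates, although their log2 fold changes there stayed between 2.14 and 2.53, between 3.52 and 4.03 and, but for 1.84 with Fscn1 and Zbtb46 alone, between 2.20 and 3.17. The edgeR adjusted p of each was 0.0542 with C1q limited to 2 UMIs, 0.0671 with at least 3 Ccr7 UMIs, 0.0799 with the second condition left out and 0.0828 with Zbtb46 not counted. With at least 1 Ccr7 UMI it was 0.203 for Igkc, 0.212 for Igha and 0.209 for Spp2, and with Fscn1 and Zbtb46 alone 0.0936 for both immunoglobulins and 0.713 for Spp2. With at least 10 Ccr7 UMIs it was 0.0649 for both immunoglobulins. With the replicate block it was 0.0934 for these 3 genes and 0.0707 for Fabp5. With predicted doublets removed Igkc, Igha and Fabp5 were called. Spp2 then fell below the filter on low counts and had no test, as also with at least 10 Ccr7 UMIs.

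Ccl22 and Il4i1 can be compared only in cells chosen without them. In cells gated on Fscn1 and Zbtb46 alone in the second condition, Ccl22 was at 110 and 148 CPM with BPTES and at 823 and 1115 with DMSO. It was called lower (log2 fold change -2.93, SE 0.225, edgeR adjusted p = 0.0242), 1 of 2 genes called among 8217 in that gate (0.0243%); the other was Fabp5. The call was lost without the first BPTES library (-2.73, edgeR adjusted p = 0.133), without the second (-3.14, edgeR adjusted p = 0.0835), with predicted doublets removed (-3.61, edgeR adjusted p = 0.232) and with the replicate block (-2.93, edgeR adjusted p = 0.0728). In these settings the difference lay between -2.73 and -3.61. The gate held 19 and 12 BPTES and 42 and 43 DMSO cells, all of them members still chosen on Ccr7, Fscn1 and Zbtb46. The highest cell of each library held 44 of 78 and 22 of 68 Ccl22 UMIs with BPTES. With DMSO it held 195 of 1189 and 353 of 1842. The part of the makeup of these cells in the difference was not tested. Il4i1 was at 125 and 318 CPM against 543 and 524, with groups that did not overlap, and was not called (log2 fold change -1.31, SE 0.417, edgeR adjusted p = 0.457). It was called without either DMSO library (-1.26 and -1.36, edgeR adjusted p = 0.0459 and 0.0396).

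**Figure D4:**
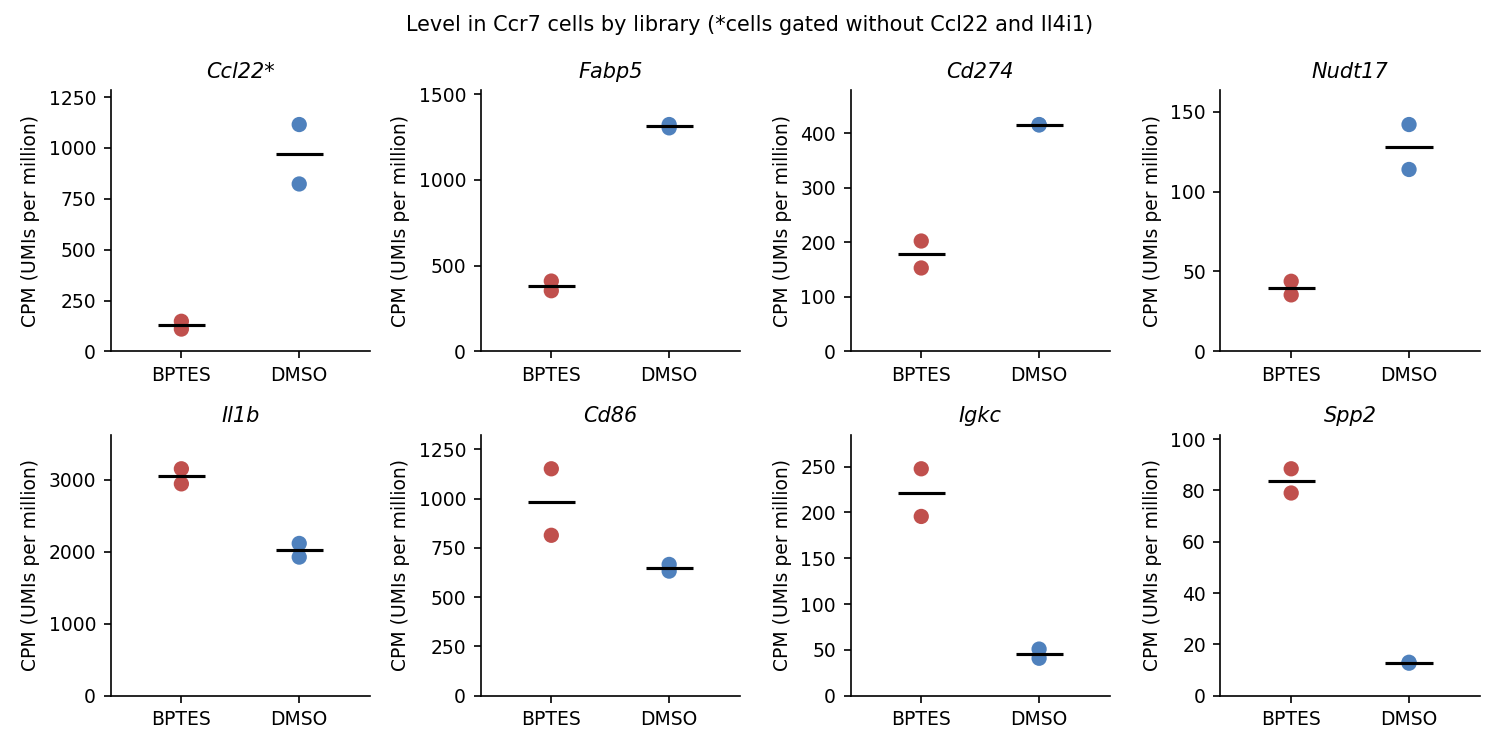
Level in Ccr7 cells (CPM) for 8 genes; points are libraries and lines are group means (n = 2). Ccl22, in cells gated without it, and Fabp5 are lower in both BPTES libraries, Igkc and Spp2 are higher, and Cd274, Nudt17, Il1b and Cd86 did not pass edgeR's test; DESeq2 called the first 3 of these.

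Between BPTES and DMSO cells edgeR called 0 of the 212 tested genes of the 15 pathway lists, with 50 at an unadjusted p under 0.05, beside 967 of all 8649 genes. DESeq2, which called 73 of all genes, called 7 of them, 6 lower with BPTES (Cacnb3, Cd200, Cd274, Il7r, Socs2 and Traf1) and 1 higher (Il1b). With predicted doublets removed edgeR called 2 of 208, Cd274 and Tmsb4x, both lower, beside 25 of all 7844 genes. With no filter on low counts it called 34 of 230, 27 lower and 7 higher, beside 484 of all 16374 genes. The 14 mature markers tested outside the rule all had a negative log2 fold change (median log2 fold change -0.90, all genes 0.000876), 8 of them at an unadjusted p under 0.05. The share of cells with at least 10 Ccr7 UMIs was lower in both BPTES libraries, and its part in these values was not tested. Nudt17 was at 43.9 and 35.4 CPM with BPTES and 142 and 114 with DMSO (log2 fold change -1.72 with SE 0.242, edgeR adjusted p = 0.0715). Cacnb3 (log2 fold change -1.51) and the annexin Anxa3 (-1.40) had the same edgeR adjusted p of 0.0715. Mir155hg, the host transcript of an inflammatory microRNA, was at 15.0 and 9.83 CPM against 134 and 83.4 (log2 fold change -3.12, SE 0.385, edgeR adjusted p = 0.0664). None of these 4 passed the threshold with edgeR, although in each the groups did not overlap. DESeq2 called all 4 (adjusted p = 0.00377 for Nudt17, 0.000809 for Cacnb3, 0.000222 for Anxa3 and 3.5e-05 for Mir155hg). With predicted doublets removed edgeR called Nudt17 (adjusted p = 0.0493) and Mir155hg (adjusted p = 0.0367).

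Of the 15 regulatory genes tested, 11 had a negative log2 fold change and 4 a positive one (median -0.64). Cd274 was at 153 and 202 CPM with BPTES and 416 and 415 with DMSO (log2 fold change -1.28 with SE 0.191, edgeR adjusted p = 0.0715). In cDC2-gated cells Cd274 was at 28.5 and 33.9 CPM against 69.4 and 58.2 (log2 fold change -1.09, SE 0.163, edgeR adjusted p = 0.0621). Both populations had lower values in both BPTES libraries, and neither passed edgeR's test. In Ccr7 cells Cd274 was called by DESeq2 (adjusted p = 0.000269) and by edgeR with predicted doublets removed (adjusted p = 0.0483). Cd200 was at 37.6 and 27.5 CPM against 97.9 and 86.2 (log2 fold change -1.52, SE 0.254, edgeR adjusted p = 0.0961, DESeq2 adjusted p = 0.0472). Kynu, a kynurenine pathway enzyme and the other gene named by the rule for this list, was at 201 and 283 against 210 and 202.

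Of 11 maturation genes, 8 were negative and 3 positive (median -0.57). Cd83 was at 1090 and 1244 CPM with BPTES and 1178 and 1315 with DMSO, with overlapping groups (log2 fold change -0.14, SE 0.121). Cd86, a ligand for T cell co-stimulation, went the other way, at 1151 and 814 CPM against 666 and 632 (log2 fold change 0.55, SE 0.174, edgeR adjusted p = 0.303). The NF-kB list had a median of -0.17 over 16 genes. Relb had a log2 fold change of -0.69 (SE 0.170, edgeR adjusted p = 0.204), and Nfkbia (log2 fold change -0.13, SE 0.163) and Rel (-0.16, SE 0.103) were close to 0. Cd83 and Cd86, named for their mean level, thus had opposite signs, and neither passed the test. Cd40, of the same list, was not called in the reported fit. With no filter on low counts edgeR called Cd40 lower (log2 fold change -1.325, adjusted p = 2.8e-05) and Cd86 higher (0.5137, adjusted p = 0.0269).

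Among 15 chemokines and cytokines, 10 were negative and 5 positive (median -0.31). Ccl17, which shares its receptor with Ccl22, was at 1234 and 224 CPM with BPTES and 921 and 964 with DMSO, so that the first BPTES library was the highest of the 4 and the second the lowest. Ccl17 was the 1 gene called among cells with 10 or more Ccr7 UMIs (log2 fold change -3.92, SE 0.261, edgeR adjusted p = 0.00456). Il1b, the inflammatory cytokine, was at 3153 and 2944 CPM against 1926 and 2116 (log2 fold change 0.54, SE 0.0952, edgeR adjusted p = 0.118, DESeq2 adjusted p = 0.0431). The sign of Il1b turned in stricter gates, to -0.48 with at least 10 Ccr7 UMIs and to -0.29 with Zbtb46 not counted, neither of them called. Fscn1-negative cells held 3108 to 4690 CPM of Il1b and Fscn1-positive cells 638 to 900. Ccl5 was at 1017 and 597 against 1049 and 1774 CPM. The interleukin 7 receptor Il7r is in the list of type 2 receptors and signalling (14 of 16 negative, median -0.29). It was at 30.1 and 53.1 against 138 and 144 CPM (log2 fold change -1.86, SE 0.279, edgeR adjusted p = 0.0715, DESeq2 adjusted p = 0.00169). The T cell marker sum was also lower in both BPTES libraries, at 5.02 and 5.90 against 51.4 and 21.8 CPM. Cd4 and Cd8a held the most UMIs in that sum, and Cd3d, Cd3e and Cd3g were at 0 by the rule. The part of this sum in the result was not tested.

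Of 21 migration and cytoskeleton genes 15 were negative (median -0.37). Tmsb4x, the actin monomer binder, had a log2 fold change of -0.39 (SE 0.0651, edgeR adjusted p = 0.0961) and Actb of -0.37 (SE 0.0650, edgeR adjusted p = 0.120). All 12 MHC class I genes were negative (median -0.31), among them B2m at 2732 and 2950 against 3552 and 3295 CPM (log2 fold change -0.32, edgeR adjusted p = 0.288). B2m was at 4025 to 4477 CPM in Fscn1-positive and 2030 to 2482 in Fscn1-negative cells. The list of class II presentation, which also holds the class I gene H2-M2, had a median of 0.01, with Cd74 at -0.17 and H2-Eb1 at -0.13.

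BPTES inhibits glutaminase, and genes of glutamine use were therefore listed. Neither edgeR nor DESeq2 called any of the 14 tested (0 had an unadjusted edgeR p below 0.05), and their median was -0.18 (4 positive, 10 negative). Glul, which makes glutamine, was at 31.3 and 31.4 against 37.2 and 32.8 CPM. Glud1 (log2 fold change 0.09, SE 0.169) and the amino acid transporter Slc38a2 (-0.15, SE 0.168) were within their errors of 0. Glycolysis genes (15 tested) had a median of 0.16 and cholesterol genes (13 tested) of -0.33, with Npc2 at -0.65 (SE 0.163, edgeR adjusted p = 0.204). Immediate early and heat shock genes were positive in 13 of 16 (median 0.28), with Egr1 at 132 and 110 against 35.3 and 59.2 CPM (log2 fold change 1.31, SE 0.279, edgeR adjusted p = 0.157). Dendritic cell development (median -0.0071), interferon response (-0.09) and survival genes (0.09) centred near 0, and Mcl1, Id2, Spi1 and Bst2 lay between -0.14 and 0.06.

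**Figure D5:**
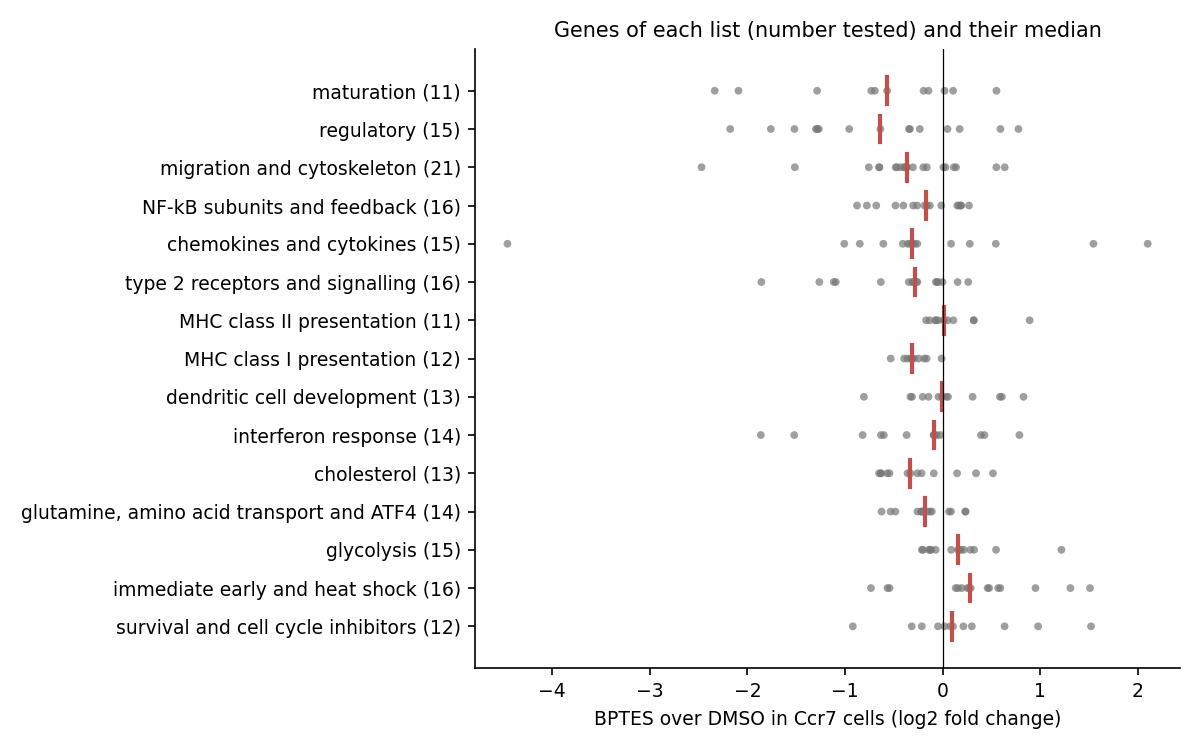
Log2 fold change of BPTES over DMSO in Ccr7 cells for the tested genes of 15 lists (grey points, number tested in parentheses) with the median of each list (red line). edgeR called no gene shown and DESeq2 called 7, and list medians run from -0.64 for regulatory genes to 0.28 for immediate early and heat shock genes.

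The response to BPTES was compared with that of cDC2-gated cells by an interaction term. These cells differed from the Ccr7 cells in fewer called genes than cDC1-gated cells did. BPTES against DMSO called 12 of 10886 genes (0.11%) in cDC2-gated cells, 10 higher (0.0919%) and 2 lower (0.0184%). The 2 responses differed for 3 of 10875 genes (0.0276%), 1 with a positive difference (0.0092%) and 2 with a negative one (0.0184%). In simulated counts this test recovered 15% of 100 genes whose responses differed by 1.5 on the log2 scale. It recovered 91% of 100 that differed by 3. The small number of called genes therefore does not show that the responses were alike. For Spp1 (osteopontin) the Ccr7 cells had 192 and 153 CPM with BPTES and 42.2 and 62.1 with DMSO, while cDC2-gated cells had 67.3 and 55.4 against 211 and 321. The difference of responses was 3.80 (SE 0.218, edgeR adjusted p = 0.00124). The change within each population was not called by edgeR. It was 1.68 in Ccr7 cells (edgeR adjusted p = 0.0715) and -2.16 in cDC2-gated cells (edgeR adjusted p = 0.0840). DESeq2 called both (adjusted p = 0.000708 and 3.95e-18). With predicted doublets removed the Spp1 value in Ccr7 cells turned to -1.93 from 1.68. For Atxn1 the Ccr7 cells had 266 and 193 against 289 and 289 CPM and cDC2-gated cells 77.3 and 77.4 against 17.5 and 11.3, a difference of -2.80 (SE 0.277, edgeR adjusted p = 0.0415), which was not called without the first BPTES library (edgeR adjusted p = 0.0766). The remaining gene, Plpp3, had 8.78 and 0 against 32.9 and 13.2 CPM in Ccr7 cells and 64.2 and 1.155 against 4.33 and 2.16 in cDC2-gated cells, a difference of -5.72 (SE 0.608, edgeR adjusted p = 0.0475). It was not called without the first BPTES library (-7.59, edgeR adjusted p = 0.444) or with RLE scaling (-5.70, edgeR adjusted p = 0.0510), and DESeq2 gave it no adjusted p. In that library's cDC2-gated cells the sum of 5 fibroblast markers was 306 CPM, against 0.385 to 3.10 in the other 3, and that of 6 endothelial markers 125 CPM against 34.8 to 57.7, and their part in the result was not tested.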

How the data were processed

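Single-cell RNA-seq (10x Genomics, 3′ chemistry) was measured in 4 kidney libraries, 2 per group. The values are deposited UMI counts per gene and barcode, made with Cell Ranger 8.0.1 on mm10, per the submitters' processing notes, and not normalized. Barcodes with at least 500 UMIs, 300 genes and at most 50% mitochondrial UMIs were kept. The Ccr7 cells, the gene lists and the alternatives were chosen with earlier results of these data known. UMIs were summed per library and population and tested with edgeR 4.0.16 in R 4.3.3 (quasi-likelihood, robust, TMM, filterByExpr, Benjamini-Hochberg over all genes tested, threshold 0.05). The genes of the rule and tdTomato stayed out of the tests. The comparison with cDC1-gated or cDC2-gated cells had library as a block. The cDC1 gate asked for at least 2 UMIs of Xcr1 and Clec9a and the cDC2 gate for at least 2 of Cd209a, Clec10a and Mgl2, at least 1 of Flt3 and Zbtb46 and none of Xcr1 and Clec9a, both without Ccr7 and with the other limits of the rule. Ratios of summed levels carry counting intervals at 95%, which leave out the spread between cells and between libraries. Doublets were predicted with Scrublet in scanpy 1.11.5 at a preset rate per number of barcodes, not by Scrublet's own calls. This rate marked 1040, 837, 1055 and 935 barcodes by library, BPTES first. Scrublet's own calls were fewer, at 199, 122, 177 and 202. The barcodes marked at the preset rate were kept, and their removal was an alternative. DESeq2 1.42.0, other scaling, filters and gates, a replicate block and leaving out each library were further alternatives. Named were the called genes with the largest changes, 2 genes per list by mean level where none was called, the 8 highest and 5 lowest against both populations, and the leading genes of the difference between responses. Some genes that the rule named are not reported here. Others named were chosen after their values were seen. Each of the 6 edgeR comparisons was tried on simulated counts with known changes.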

Additional observations from a re-analysis of the deposited data

Results flagged for a closer look

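The response to BPTES differed between the Ccr7 cells and the cDC2-gated cells, by a test of the difference itself (edgeR, interaction term), for 3 genes. For Spp1, osteopontin, the difference in log2 fold change was 3.80 (edgeR adjusted p = 0.00124), with no overlap of the groups in either population. The change in Ccr7 cells was 1.68 (edgeR adjusted p = 0.0715) and turned to -1.93 with predicted doublets removed, the same sign as the -2.16 in cDC2-gated cells (edgeR adjusted p = 0.0840). With all cells kept, DESeq2 called the change in each population (adjusted p = 0.000708 and 3.95e-18). For Atxn1 it was -2.80 (edgeR adjusted p = 0.0415), with higher values in both BPTES libraries of cDC2-gated cells. For Plpp3 it was -5.72 (edgeR adjusted p = 0.0475), with 64.2 CPM in the first BPTES library of cDC2-gated cells and at most 4.33 CPM in their other libraries. In that library's cDC2-gated cells 5 fibroblast markers summed to 306 CPM, against 0.385 to 3.10 in the other 3, and their part in the result was not tested.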

How the results depend on the processing

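The number of genes called between BPTES and DMSO in Ccr7 cells, 4 in the reported fit, depended on most settings. It was 73 with DESeq2, 484 with no filter on low counts, 25 with predicted doublets removed and 23 to 83 when 1 library was left out. It was 1, Fabp5, with at least 3 Ccr7 UMIs, with the second condition left out, with Fscn1 and Zbtb46 alone and with C1q at most 2. With at least 10 Ccr7 UMIs it was also 1, but Ccl17, and 0 of the 4 genes remained. It was 0 with at least 1 Ccr7 UMI and with Zbtb46 not counted (edgeR, 687 and 677 genes at an unadjusted p under 0.05). With the replicate block it was also 0 (edgeR, 771 at an unadjusted p under 0.05). Deviations of same-numbered libraries had a correlation of -0.222 over genes, which does not show that the numbers pair the libraries, and the labels do not say; with the crossed pairing, chosen after seeing the data, 302 genes were called. In cDC2-gated cells the count was 133 with DESeq2, 688 with no filter, 109 with the replicate block and 0 to 161 when 1 library was left out, against 12; it was 1 and 0 without the first and second DMSO library and 161 and 140 without the first and second BPTES library. The difference between responses was called for 28 genes with DESeq2, 244 with no filter and 2 to 54 when 1 library was left out, against 3. Against cDC2-gated cells 740 to 1424 genes were called when 1 library was left out.

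The share of Ptprc-positive barcodes differed by -2.40 (log2) with at least 10 Ccr7 UMIs, -2.00 with Zbtb46 not counted and -2.71 after thinning, and the share of gated dendritic cells by -1.89, -1.44 and -2.10, against -1.45 and -0.92. With the second condition left out they were -1.15 and -0.65, and when 1 library was left out -1.76 to -1.19 and -1.18 to -0.71. Ccl22 was -2.93 with the replicate block (edgeR adjusted p = 0.0728), -3.61 without predicted doublets and -3.14 to -2.73 when 1 library was left out. Il4i1 was called with no filter (-1.35) and ranged from -2.09 to -0.77 when 1 library was left out. The cause was not tested for any of these.

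Of the genes reported here, those that changed sign between BPTES and DMSO in Ccr7 cells, none of them called in the reported fit, were as follows. With at least 1 Ccr7 UMI, Bst2 was 0.22, Id2 0.13, Glud1 -0.0042 and Jun -0.020. With at least 3, Bst2 was 0.095 and Mcl1 -0.062. Bst2 was 0.021 with Fscn1 and Zbtb46 alone, and Mcl1 was -0.018 with no filter and -0.00058 with C1q at most 2. With at least 10 Ccr7 UMIs, Kynu was -0.26, Il1b -0.48, Ccl5 0.26, Csf2rb 0.018, B2m 0.069, Id2 0.21, Bst2 0.54, Glud1 -0.051, Slc38a2 0.21 and Mcl1 -0.34. With Zbtb46 not counted, Il1b was -0.29, Id2 0.14, Spi1 -0.15, Bst2 0.031, Glud1 -0.043, Slc38a2 0.042, Mcl1 -0.17 and Ccl17 0.27. Spp1 was -1.93 with predicted doublets removed. When 1 library was left out, the ranges were -2.11 to 0.32 for Ccl17, -0.43 to 0.67 for Ccnd2, -0.34 to 0.031 for Gapdh, -0.023 to 0.17 for Glud1, -0.33 to 0.0060 for Id2, -0.16 to 0.40 for Junb, -0.10 to 0.42 for Kynu, -0.069 to 0.091 for Mcl1, -0.32 to 0.059 for Nfkbia and -0.041 to 0.14 for Spi1.

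With 13 to 50 Ccr7 cells per library, the number of cells limits the precision. Which limit is larger was not compared: at 5000 UMIs a barcode, 5, 3, 25 and 29 cells met the rule.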
